A study of Homo sapiens with 12 samples.

Results

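The circadian clock genes PER1, PER2, PER3, CRY1, CRY2, NR1D1, NR1D2, DBP, BHLHE40, and CIART were described by RNA sequencing in TIGK cells treated with L-arginine (Arg). TIGK cells are human keratinocytes of the gingiva that carry hTERT, and all libraries come from this 1 line. The members were picked by gene symbol, with earlier results of these data known, and are 10 of the 58735 genes in the count table. Cells grown in plates at 48 mM glucose received 500 μM Arg for 24 or 48 h, and the untreated control cells of each time received none. The methods give DMEM-SILAC Flex, which held no Arg, as the base medium of the assays. Hydrocortisone hemisuccinate, insulin, epinephrine, TGF-α, apo-transferrin, pituitary extract, L-glutamine, and L-lysine are listed as supplements, added as needed. The paper does not list them separately for the sequenced cells. There were 3 libraries in each of the 4 groups, labelled A, B, and C. The sources used here give neither the hour of the day at harvest nor a step that sets the clocks of the cells to a common phase. The labels do not say whether the replicates came from separate cultures, so the p-values measure the spread between these libraries, which may be technical.

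The circadian clock is a feedback loop of transcription. CLOCK and its partner BMAL1 (gene ARNTL) bind E-box sequences and switch on the PER and CRY genes, whose proteins return to the nucleus and inhibit CLOCK and BMAL1. A second loop runs through the nuclear receptors REV-ERBα and REV-ERBβ (genes NR1D1 and NR1D2), which are induced through E-boxes and repress ARNTL in competition with the ROR activators. DBP is an output factor that binds D-box sequences, BHLHE40 (DEC1) represses transcription from E-boxes, and CIART (CHRONO) inhibits the CLOCK and BMAL1 pair. Such loops run in epithelial cells as well as in the brain, and glucocorticoids, one of which is among the listed supplements, are known to induce PER1.

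The sequences that the loop acts through are shown first. Promoter sequences were taken from RefSeq (GRCh38.p14), where 13 entries matched all 10 members, and the 250 bases upstream of each transcript start were searched on both strands. The E-box CACGTG was found upstream of 4 members, BHLHE40, CIART, NR1D2, and PER1, and in 7.73% of all 27305 genes of the promoter table (6.34% of its 35116 entries). The D-box, searched as TTATGTAA or TTACGTAA, was found upstream of NR1D2 and PER3 and in 1.19% of all genes. The half-site of the ROR and REV-ERB receptors, TAGGTCA, was found upstream of CRY2, from base -65 to base -59, and in 2.01% of all genes. The cyclic AMP response element TGACGTCA was found upstream of 0 members and in 2.03% of all genes. None of the matches overlapped another. A match only says that these letters stand in the window. A missing match only says that these exact letters were absent there. Other spellings and sites outside the 250 bases were not searched. The windows around the E-box and D-box matches are printed 5′ to 3′ on the strand of the gene, with the matches in capitals, since CLOCK and BMAL1 act through the former and DBP through the latter. The D-box windows were added after the matches were seen.
NR1D2 (chr3:23945915-23946033, plus strand): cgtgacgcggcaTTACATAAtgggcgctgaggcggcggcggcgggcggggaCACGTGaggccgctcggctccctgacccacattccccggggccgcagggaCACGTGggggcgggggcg
BHLHE40 (chr3:4979187-4979209, plus strand): tccaaCACGTGagactcatgtga
PER1 (chr17:8152560-8152589, minus strand): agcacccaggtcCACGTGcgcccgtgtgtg
CIART (chr1:150282413-150282514, plus strand): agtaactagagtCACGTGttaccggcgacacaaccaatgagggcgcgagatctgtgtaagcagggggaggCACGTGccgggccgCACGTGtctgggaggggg
PER3 (chr1:7784102-7784133, plus strand): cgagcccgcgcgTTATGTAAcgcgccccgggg

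In the NR1D2 window, the D-box (matched as TTACATAA, its other strand) stood at base -194 and the E-boxes at bases -155 and -105, where base -1 is the one before the transcript start. CIART held the most E-boxes, at bases -129, -71, and -57. The single E-box of PER1 stood at base -173 and that of BHLHE40 at base -245, and the D-box of PER3 stood at base -177. In GENCODE v44, no window overlapped an exon. The windows of NR1D2 and PER1 lay in introns of 2 of 5 and 4 of 19 transcripts of those genes, because the RefSeq entry starts inside the gene. The NR1D2 window was also spanned by NKIRAS1 and the BHLHE40 window by BHLHE40-AS1, both on the opposite strand. The PER1 window was also spanned by ENSG00000263620. In the count table, BHLHE40 starts at base 4979116, so its window lies inside the gene by those coordinates.

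**Figure D1:**
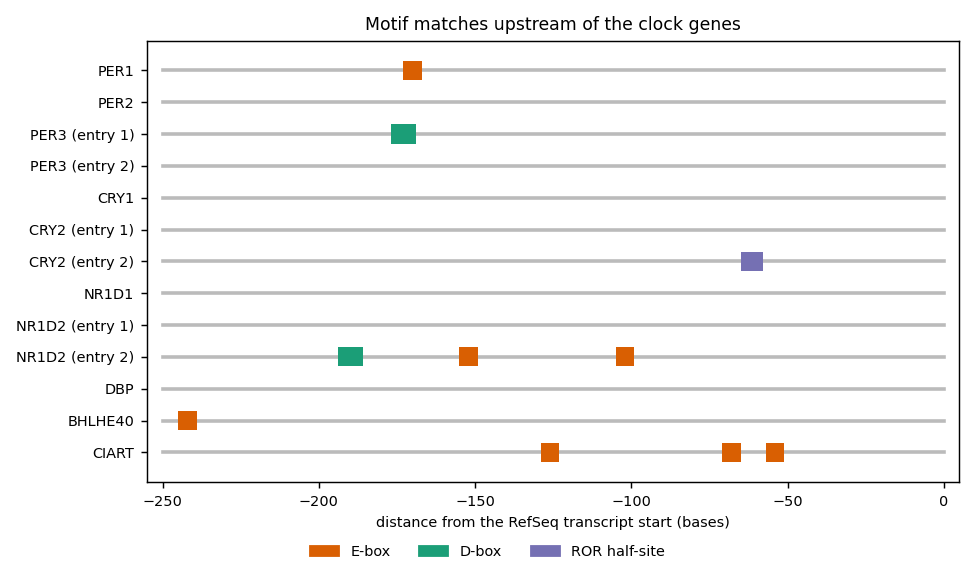
Motif matches in the 250 bases upstream of each RefSeq transcript start of the 10 clock genes; the x axis is the distance from the start in bases, each grey line is 1 promoter entry, and the coloured boxes are matches to the E-box, the D-box, or the ROR half-site. NR1D2 holds a D-box and 2 E-boxes in 1 entry, and CIART holds 3 E-boxes. PER2, CRY1, CRY2, NR1D1, and DBP show no match to the E-box or D-box letters that were searched.

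The libraries held between 16542243 and 19040964 counts. The labelled cell type was checked against its markers: the summed level of 9 keratinocyte markers lay between 35550 and 47770 CPM (counts relative to the library size, scaled by TMM) in the 12 libraries, while the summed levels of 5 melanocyte, 5 leukocyte, and 4 endothelial markers reached at most 6.41 CPM and TYR was at 0. The 7 fibroblast markers summed to between 30.2 and 102 CPM. Control replicate B at 48 h stood apart from the other libraries of its group. Its chi-square per degree of freedom was 20.9 against replicate A and 23.9 against replicate C, compared with at most 12.5 in any other pair of replicates, and mitochondrially encoded genes took 1.55% of its counts against 0.906% and 0.707%. Comparisons that use this library are therefore also given without it.

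All 10 clock genes were detected in every library and passed the filter on low counts in every comparison. PER1 had by far the most counts, between 2037 and 3177 in a library, and CIART the fewest, between 49 and 133. For CIART, counting alone gives a coefficient of variation of 10.1 to 12.6%, and for PER1 of 1.83 to 2.10%, so small differences were harder to detect for CIART. To compare levels between genes, CPM was divided by the merged exon length given in the count table. PER1, a core repressor of the loop, was at 18.2 ± 0.553 CPM per kilobase in the 24 h control (SD, n = 3), and its libraries lay above those of the next gene in all 4 groups. The next gene in the 24 h control was NR1D1 at 4.35 ± 0.942 CPM per kilobase, whose libraries overlapped those of BHLHE40 (4.33 ± 0.420), and BHLHE40 in turn overlapped CRY1 (4.00 ± 0.485) and CRY1 overlapped NR1D2 (3.90 ± 0.350). CRY2 (2.62 ± 0.0922), PER3 (2.33 ± 0.177), PER2 (2.14 ± 0.0554), and CIART (1.32 ± 0.329 CPM per kilobase) followed, and of these neighbours only PER3 and PER2 overlapped. DBP was the lowest member per kilobase in all 4 groups, at 0.888 to 1.02 CPM per kilobase on average, with a merged exon length of 6544 bases. This place depends on the division by length. Before it, CIART was lower than DBP in all 4 groups, on average at 3.57 to 5.48 CPM against 5.81 to 6.68 CPM.

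The place of the genes between PER1 and DBP differed between the groups. In the 24 h Arg group, CRY1 was second at 4.50 ± 0.139 CPM per kilobase, above CRY2 at 3.44 ± 0.268 without overlap, and BHLHE40, NR1D1, and NR1D2 stood behind PER3 with overlapping libraries. In the control at 48 h, BHLHE40 was second at 4.91 ± 0.411 CPM per kilobase and overlapped CRY1, and NR1D1 was the fifth at 2.71 ± 0.489. With Arg at 48 h, BHLHE40 was again second, at 4.57 ± 0.111 CPM per kilobase and without overlap with CRY1, while the places from CRY1 to PER2 were all held by neighbours that overlapped.

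**Figure D2:**
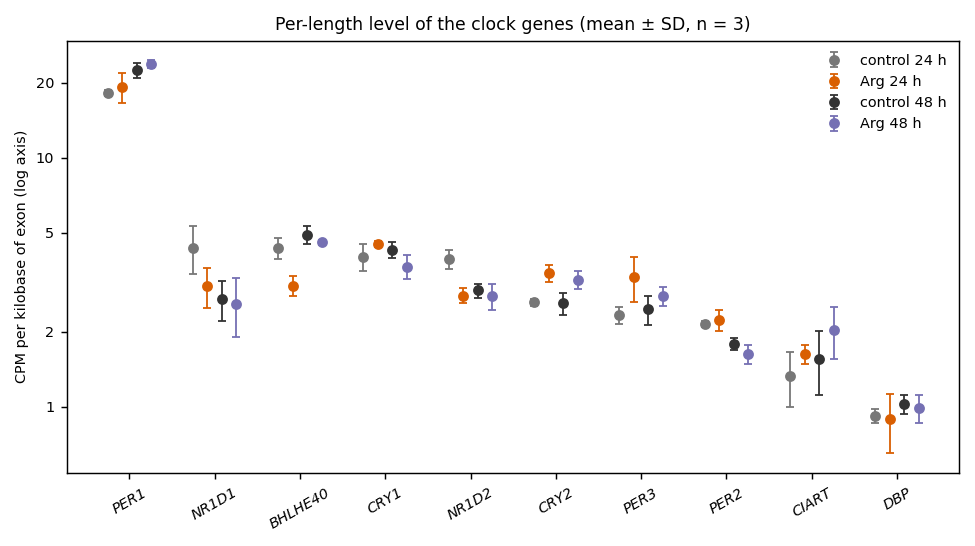
Level of the 10 clock genes in CPM per kilobase of exon on a log axis, as mean ± SD of 3 libraries, for each of the 4 groups; genes are ordered by their level in the 24 h control. PER1 stands above all other genes, between 18.2 and 23.8 on average, and DBP is the lowest.

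To assess the effect of Arg on the clock genes at 24 h, the Arg libraries were compared with the untreated control of the same time. PER3 was higher with Arg, and NR1D2 and BHLHE40 were lower, each by about 0.5 on the log2 scale, while the other 7 members did not pass the test (edgeR's quasi-likelihood test, adjusted p under 0.05). Thus, 1 of 10 members was called higher, where 2.79% of all 14279 tested genes were, and 2 of 10 were called lower, where 3.84% were. At an unadjusted p under 0.05, the counts were 2 higher and 3 lower, with 10.8% and 11.9% of all genes. The groups did not overlap for 2 members that were higher (PER3 and CRY2) and 2 that were lower (NR1D2 and BHLHE40), where this held for 12.9% and 13.4% of all genes. The median log2 fold change was 0.07 over the 10 members and 0.003 over all tested genes. The shares over all genes depended on single libraries: without control replicate A or C or Arg replicate B or C they fell to between 0.859 and 1.03% higher and 1.59 and 1.95% lower, and without control replicate B they were 4.42% and 6.02%. Mitochondrially encoded genes took 0.624 to 0.802% of the counts of the Arg libraries at 24 h and 1.2 to 1.3% of those of the control, and the keratinocyte markers summed to 40350 to 47770 CPM against 35550 to 40980. Most of this sum was KRT5, at 24120 to 31700 CPM in these libraries. Of the 9 keratinocyte markers, 0 were called higher and 1, ITGA6, was called lower with Arg (-0.40, adjusted p = 0.00840), and of the 4 fibroblast markers tested 0 were higher and 1, DCN, was lower (-0.70, adjusted p = 0.0294, edgeR). The part of these markers and of the mitochondrial share in the differences at 24 h was not tested. In cultures of this kind, fewer cells with a transcript and less of it in each cell cannot be told apart.

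Of the receptors of the second loop, NR1D2 (ENSG00000174738, chr3:23945260-23980618, plus strand) was at 21.7, 25.1, and 21.4 CPM in the control replicates A, B, and C and at 17.5, 16.0, and 15.3 CPM in those with Arg. All 3 Arg libraries lay below all 3 control libraries. The log2 fold change was -0.49 ± 0.12 (SE), with an adjusted p of 0.0225 by edgeR, the smallest of the 10 members. Whether counting used the strand is not stated, so reads from the stretch that NR1D2 shares with NKIRAS1 on the opposite strand cannot be separated. The gene spans share 1332 bases, introns included, and the exonic part of this was not measured. NKIRAS1 had 973 counts over all libraries against 3915 of NR1D2, and its log2 fold change was 0.01 (adjusted p = 0.976). The call for NR1D2 was lost without control replicate A (adjusted p = 0.0622), Arg replicate B (0.0917), or Arg replicate C (0.115).

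NR1D1 (ENSG00000126368, chr17:40092787-40100725, minus strand), which encodes the other REV-ERB receptor, was at 13.1, 9.09, and 14.0 CPM in the control and 8.04, 10.1, and 7.15 CPM with Arg. The groups overlapped, because control replicate B was below Arg replicate B. The log2 fold change was -0.52 ± 0.19 and the adjusted p was 0.105 (edgeR). Without control replicate B, NR1D1 passed the test at -0.69 (adjusted p = 0.0167), and without a filter on low counts it passed with an adjusted p of 0.0465. The gene span of NR1D1, introns included, shares 1081 bases with that of THRA on the opposite strand. THRA had more counts (2835 against 1906) and a log2 fold change of -0.29 (adjusted p = 0.262, edgeR), so the NR1D1 values are uncertain.

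Of the period genes, PER3 (ENSG00000049246, chr1:7784320-7845177, plus strand) was at 17.5, 18.6, and 20.4 CPM in the control and 21.7, 32.7, and 25.9 CPM with Arg. Every Arg library was above every control library, with replicate B the highest. PER3 had a log2 fold change of 0.50 ± 0.14 and an adjusted p of 0.0359 (edgeR). This call was lost without control replicate A (adjusted p = 0.154), control replicate C (0.0579), Arg replicate B (0.33 on the log2 scale, 0.224), or Arg replicate C (0.0917).

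PER1 (ENSG00000179094, chr17:8140472-8156506, minus strand) was at 124, 132, and 126 CPM in the control and 115, 150, and 140 CPM with Arg. The Arg libraries lay on both sides of the control, and the log2 fold change was 0.08 ± 0.09 (adjusted p = 0.658, edgeR). PER2 (ENSG00000132326, chr2:238244038-238290102, minus strand) was at 14.5, 14.5, and 15.2 CPM in the control and 16.0, 16.2, and 13.6 CPM with Arg, also with overlap, and its log2 fold change was 0.05 ± 0.13 (adjusted p = 0.860).

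The cryptochromes bind the PER proteins and hold CLOCK and BMAL1 inactive. CRY2 (ENSG00000121671, chr11:45847118-45883248, plus strand) was at 16.9, 16.2, and 15.7 CPM in the control and 19.6, 21.6, and 22.8 CPM with Arg. The groups did not overlap, but the log2 fold change of 0.39 ± 0.12 missed the threshold with an adjusted p of 0.0585 (edgeR). It passed without Arg replicate A, at 0.45 with an adjusted p of 0.0409, and in a single model of all 12 libraries, at 0.39 with 0.0474. CRY1 (ENSG00000008405, chr12:106991364-107093829, minus strand) was at 19.0, 18.6, and 23.1 CPM in the control and 22.9, 23.4, and 22.0 CPM with Arg. Control replicate C lay within the Arg libraries, and the log2 fold change was 0.17 ± 0.12 (adjusted p = 0.426).

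Among the other repressors and the output factor, BHLHE40 (ENSG00000134107, chr3:4979116-4985323, plus strand) was at 15.4, 18.5, and 16.0 CPM in the control and 10.9, 11.5, and 13.0 CPM with Arg. The groups did not overlap, and the log2 fold change was -0.50 ± 0.14, with an adjusted p of 0.0375 (edgeR). The call was lost with any of the 6 libraries left out, with adjusted p-values between 0.0647 and 0.126 and log2 fold changes between -0.58 and -0.42. CIART (ENSG00000159208, chr1:150282543-150287093, plus strand) lay between 2.77 and 4.52 CPM in the control and between 4.05 and 4.78 CPM with Arg, with a log2 fold change of 0.29 ± 0.24 (adjusted p = 0.506). DBP (ENSG00000105516, chr19:48630030-48637438, minus strand) lay between 5.56 and 6.34 CPM in the control and between 4.05 and 6.99 CPM with Arg, with a log2 fold change of -0.05 ± 0.22 (adjusted p = 0.925). Both genes overlapped between the groups. The gene span of DBP, introns included, shares 688 bases with that of SPHK2 on the opposite strand. SPHK2 had more counts (3085 against 1359 of DBP) and a log2 fold change of 0.21 (adjusted p = 0.334, edgeR), so the DBP values are uncertain.

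**Figure D3:**
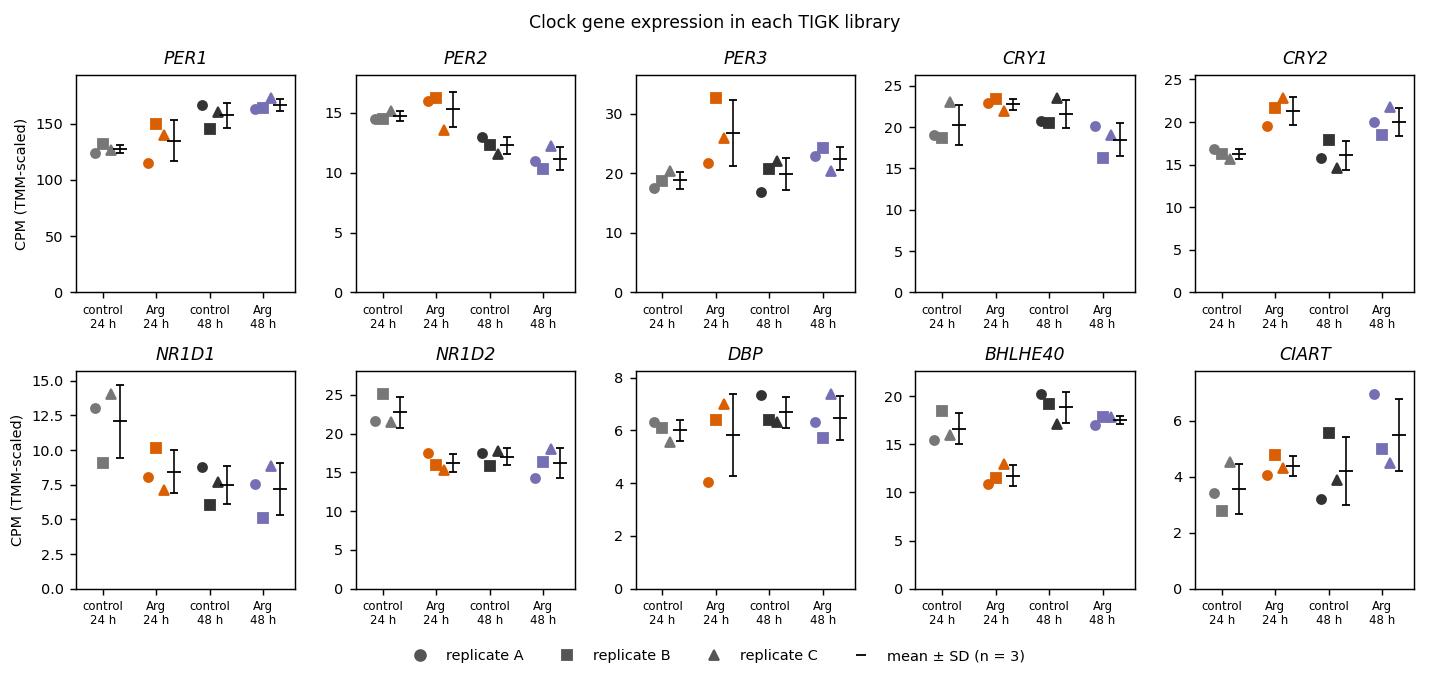
TMM-scaled CPM (linear axis from 0) of each clock gene in the 12 TIGK libraries, by group, with a symbol for each replicate and the mean ± SD of 3 libraries beside it. NR1D2 and BHLHE40 lie lower with Arg than in the control at 24 h and PER3 and CRY2 lie higher, without overlap between those groups, while PER1 lies higher at 48 h than at 24 h in the control.

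At 48 h, none of the 10 clock genes passed the test between the Arg and control libraries. The count of calls was 0 higher and 0 lower by edgeR and also by DESeq2. Over all 14562 tested genes, edgeR called 0 genes higher (0%) and 17 lower (0.117%). DESeq2, which gave an adjusted p for 10871 genes, called 42 and 127. At an unadjusted p under 0.05, 1 member was higher and 0 were lower, where 5.94% and 7.49% of all genes were. The groups did not overlap for 1 member that was higher (CRY2) and 1 that was lower (CRY1), where this held for 8.56% and 8.51% of all genes. The median log2 fold change of the members was -0.06. Without control replicate B, edgeR called 1152 genes higher and 1213 lower, which is 7.76% and 8.17% of 14854, and 1 of the 10 members was higher and 0 were lower.

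This member was CRY2, which was at 15.7, 17.9, and 14.6 CPM in the 48 h control and 19.97, 18.5, and 21.7 CPM with Arg. The groups did not overlap, with control replicate B the nearest to the Arg libraries. The log2 fold change was 0.31 ± 0.12, with an unadjusted p of 0.0244 and an adjusted p of 0.298 (edgeR). Without control replicate B, it was 0.40 ± 0.12 with an adjusted p of 0.0234. CRY1, the other cryptochrome, was at 20.7, 20.5, and 23.5 CPM in the control and 20.2, 16.2, and 19.0 CPM with Arg. Here, all Arg libraries lay below the control, and the log2 fold change was -0.23 ± 0.12 (adjusted p = 0.434, or 0.144 at -0.26 without control replicate B).

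The genes called at 24 h had smaller differences at 48 h, none past the threshold. NR1D2 was at 17.6, 15.8, and 17.8 CPM in the 48 h control and 14.2, 16.3, and 18.1 CPM with Arg, a log2 fold change of -0.08 ± 0.12 (adjusted p = 0.823, edgeR). BHLHE40 was at 20.2, 19.2, and 17.1 CPM in the control and 17.05, 17.8, and 17.8 CPM with Arg, a log2 fold change of -0.11 ± 0.11 (adjusted p = 0.718). PER3 was at 16.9, 20.8, and 22.0 CPM in the control and 22.9, 24.2, and 20.3 CPM with Arg, a log2 fold change of 0.17 ± 0.12 (adjusted p = 0.580). All 3 genes overlapped between the groups. The other 5 members had log2 fold changes between -0.14 (PER2) and 0.38 (CIART), with adjusted p-values between 0.549 and 0.929. For CIART, which was at 3.20, 5.55, and 3.86 CPM in the control and 6.94, 5.00, and 4.49 CPM with Arg, the log2 fold change was 0.64 without control replicate B (adjusted p = 0.0821). Without that library, NR1D2 was at -0.13, BHLHE40 at -0.09, and PER3 at 0.21, with adjusted p-values of 0.530, 0.663, and 0.280, and the remaining members lay between -0.19 (NR1D1) and 0.03 (PER1).

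The difference between the effects of Arg at 24 and 48 h was tested directly with an interaction term over the 12 libraries. For 0 of the 10 members did it pass the adjusted threshold, which 2 of 15148 genes did (0.0132%). With control replicate B of 48 h left out, 46 of 15508 genes passed (0.297%), and 0 members. At an unadjusted p under 0.05, 3 members (NR1D2, BHLHE40, and CRY1) differed between the times, where 6.87% of all genes did. By edgeR, the effect of Arg at 48 h less its effect at 24 h, on the log2 scale, was 0.41 ± 0.17 for NR1D2 (adjusted p = 0.665), 0.40 ± 0.17 for BHLHE40 (adjusted p = 0.694), and -0.39 ± 0.17 for CRY1 (adjusted p = 0.673). For PER3 it was -0.33 ± 0.20 (adjusted p = 0.794) and for CRY2 -0.08 (adjusted p = 0.963). Without control replicate B at 48 h, the values were 0.36 for NR1D2, 0.41 for BHLHE40, -0.43 for CRY1, -0.30 for PER3, and 0.0077 for CRY2, with adjusted p-values of 0.393 or more. Hence, the smaller effects on NR1D2, BHLHE40, and PER3 at 48 h were not shown to differ from those at 24 h.

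**Figure D4:**
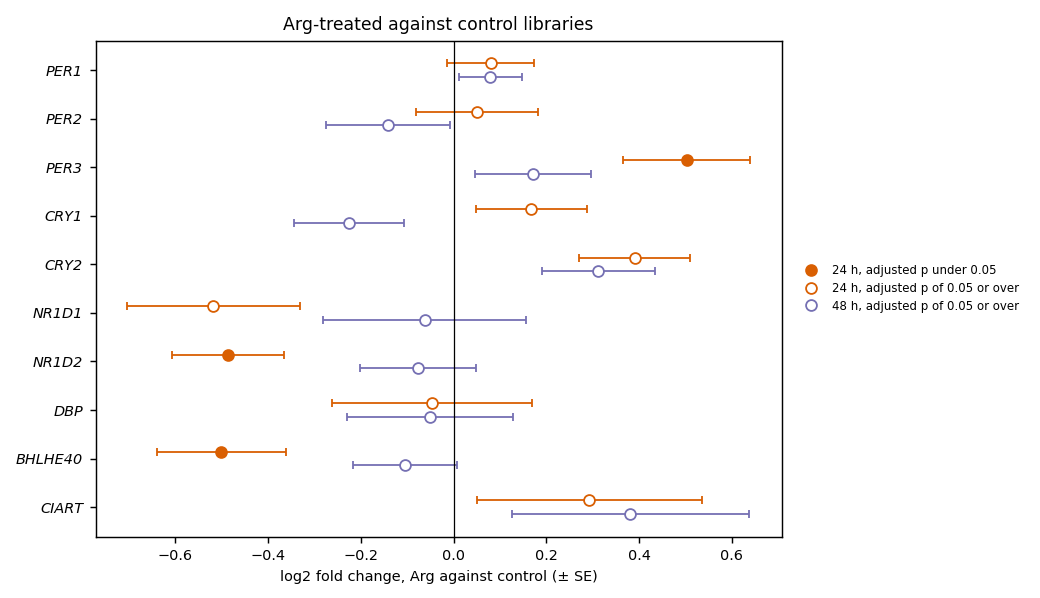
Log2 fold change between Arg and control libraries (x axis, ± SE from edgeR) of each clock gene at 24 and 48 h, with filled points for an adjusted p under 0.05. PER3 is filled on the right and NR1D2 and BHLHE40 on the left at 24 h, at 0.50, -0.49, and -0.50, and no point is filled at 48 h.

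The groups were next compared between 24 and 48 h within each treatment. These times lie a day apart, and neither the hour of harvest nor a common phase is known. Cycling of the clock and time in culture therefore cannot be told apart here. These comparisons use the same libraries as those between Arg and control, so they are not independent of them. In the control, PER1 was higher at 48 h and NR1D1 and NR1D2 were lower. This is 1 of 10 members higher, where 9.9% of 14449 genes were, and 2 of 10 lower, where 10% were. These shares were 2.85% and 2.74% without replicate A of the 24 h control, 3.34% and 3.36% without its replicate C, and 6.17% and 6.22% without replicate A of the 48 h control. Without control replicate B at 48 h, 1 member was higher and 0 were lower, where 7.81% and 8.6% of all genes were. With Arg, PER1 and BHLHE40 were higher and PER2 was lower, which is 2 of 10 higher, where 14.3% of 14398 genes were, and 1 of 10 lower, where 14% were. The times did not overlap for PER1 (higher) and for NR1D1, NR1D2, and PER2 (lower) in the control, where 19.2% and 19.7% of all genes did not. With Arg, they did not overlap for PER1 and BHLHE40 (higher) and for PER2 and CRY1 (lower), where 21.1% and 21.2% did not. With scaling by library size only, the calls over all genes moved toward higher, from 1431 higher and 1451 lower to 1845 and 1008 in the control, and from 2060 and 2012 to 2568 and 1453 with Arg. The summed level of the fibroblast markers was 34.2 to 54.5 CPM in the 24 h control and 85.4 to 102 CPM in the 48 h control, and with Arg 30.2 to 41.4 and 72.7 to 100.3 CPM. Of these 7 markers, 3 were under 1 CPM in every library, and COL1A1 and DCN were called higher at 48 h in both treatments. The endothelial markers summed to 0.921 to 2.88 CPM in the 24 h control and 4.62 to 6.30 CPM in the 48 h control, and to 0.757 to 3.01 and 4.09 to 6.41 CPM with Arg, with KDR called higher in both. Mitochondrially encoded genes took 1.2 to 1.3% of the counts at 24 h and 0.707 to 1.55% at 48 h in the control, and 0.624 to 0.802% and 1.14 to 1.31% with Arg. The part of these values in the time differences was not tested.

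PER1 was at 167, 145, and 160 CPM in the 48 h control, above all 3 values of the 24 h control, and its log2 fold change was 0.31 ± 0.08 (adjusted p = 0.0175, edgeR). With Arg, PER1 was at 163, 164, and 173 CPM at 48 h, again above all libraries of 24 h, and the log2 fold change was 0.31 ± 0.08 (adjusted p = 0.0101). In the control, the call was lost without replicate A or C of 24 h (adjusted p = 0.0892 and 0.0782) or of 48 h (0.0814 and 0.0576), and it held without control replicate B at 48 h (0.36, adjusted p = 0.00539). With Arg, it held with any of the 6 libraries left out.

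BHLHE40 was higher at 48 h than at 24 h in the Arg groups, with a log2 fold change of 0.58 ± 0.13 (adjusted p = 0.00176, edgeR), and its libraries did not overlap. This call held with any of the 6 libraries left out, with adjusted p-values between 0.00194 and 0.00973. In the control, the log2 fold change was 0.18 and did not pass (adjusted p = 0.342, or 0.442 at 0.17 without control replicate B of 48 h). On the level scale, the mean of BHLHE40 was 16.6 ± 1.61 CPM in the 24 h control, 11.8 ± 1.08 CPM with Arg at 24 h, 18.8 ± 1.58 CPM in the 48 h control, and 17.6 ± 0.430 CPM with Arg at 48 h (SD, n = 3). The 24 h Arg group was thus the low one of the 4.

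For NR1D2, the 24 h control was the high group. Its mean was 22.7 ± 2.04 CPM, against 16.2 ± 1.14 CPM with Arg at 24 h, 17.1 ± 1.11 CPM in the 48 h control, and 16.2 ± 1.92 CPM with Arg at 48 h. The log2 fold change over time was -0.41 ± 0.12 in the control (adjusted p = 0.0314, edgeR) and -0.0025 with Arg (adjusted p = 0.991). The call in the control was lost with any of the 6 libraries left out (adjusted p-values between 0.0551 and 0.0815) and with scaling by library size only (-0.35, adjusted p = 0.0638). For NR1D1, too, the 24 h control had the highest mean, with 12.1 ± 2.61 CPM in the 24 h control and 8.44 ± 1.53, 7.499 ± 1.35, and 7.18 ± 1.90 CPM in the 24 h Arg, 48 h control, and 48 h Arg groups. Its log2 fold change over time was -0.68 ± 0.20 in the control (adjusted p = 0.0335) and -0.23 with Arg (adjusted p = 0.433). The call for NR1D1 was lost without replicate A or C of the 24 h control (adjusted p = 0.132 and 0.145) or replicate B or C of the 48 h control (0.0684 and 0.0633).

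PER2 was lower at 48 h in both treatments, but passed the test only with Arg. It was at 13.0, 12.3, and 11.5 CPM in the 48 h control and 10.9, 10.3, and 12.2 CPM with Arg at 48 h, in each case below all libraries of 24 h. The log2 fold change was -0.26 ± 0.13 in the control (adjusted p = 0.175, edgeR, or 0.215 without control replicate B of 48 h) and -0.45 ± 0.13 with Arg (adjusted p = 0.0162), and the difference between these was not called (-0.19, adjusted p = 0.894). The call was lost without Arg replicate B of 24 h (adjusted p = 0.0581) or Arg replicate A or B of 48 h (0.0534 and 0.0790). CRY1 with Arg was just outside the threshold, at -0.30 ± 0.11 with an adjusted p of 0.0538, and passed without Arg replicate A of 48 h (-0.37, adjusted p = 0.0494). PER3 with Arg had a log2 fold change of -0.25 (adjusted p = 0.162) and passed without Arg replicate A of 24 h (-0.38, adjusted p = 0.0225). CRY2, DBP, and CIART did not pass in either treatment, with log2 fold changes between -0.09 and 0.33. In the control without replicate B of 48 h, these 3 genes, PER3, and CRY1 lay between -0.096 (CRY2) and 0.19 (DBP).

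**Figure D5:**
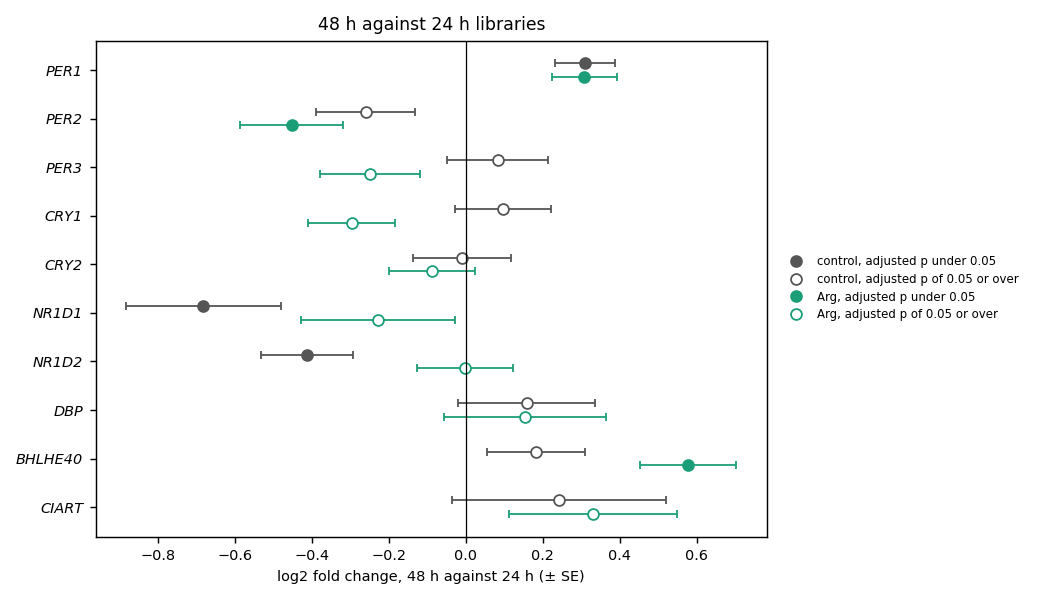
Log2 fold change between 48 and 24 h (x axis, ± SE from edgeR) of each clock gene in the control and Arg groups, with filled points for an adjusted p under 0.05. PER1 is filled at 0.31 in both, NR1D1 and NR1D2 are filled in the control at -0.68 and -0.41, and PER2 and BHLHE40 are filled with Arg at -0.45 and 0.58.

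Other genes of the clock and genes that respond to glucocorticoids were described from 4 further lists. Of the list of the activator arm, 5 genes passed the filter on low counts and were tested. At 24 h, 0 were higher and 1 was lower with Arg, where 2.79% and 3.84% of all genes were, and at 48 h 0 and 0, where 0% and 0.117% were. The lower gene was ARNTL, the partner of CLOCK and the target of the REV-ERB receptors. It was at 33.3, 33.1, and 37.7 CPM in the 24 h control and 23.4, 23.6, and 26.7 CPM with Arg. The groups did not overlap, and the log2 fold change was -0.50 ± 0.11 (adjusted p = 0.00840, edgeR). The call was lost without control replicate C (adjusted p = 0.0539) or Arg replicate B (0.0510). At 48 h, ARNTL was at 31.2, 24.0, and 29.5 CPM in the control and 24.8, 23.8, and 24.5 CPM with Arg. The log2 fold change was -0.21 (adjusted p = 0.430, edgeR). Without control replicate B, it was -0.32 (adjusted p = 0.0260), where 8.17% of all genes were called lower. For CLOCK, Arg gave -0.18 on the log2 scale at the first time (adjusted p = 0.310, edgeR) and 0.09 at the second (adjusted p = 0.781, or 0.949 at 0.01 without control replicate B). The gene span of CLOCK, introns included, shares 25495 bases with that of TMEM165 on the opposite strand. TMEM165 had 13991 counts against 6453 of CLOCK, and the exonic part of the shared stretch was not measured. Between 24 and 48 h, 0 genes were higher and 1, ARNTL2, was lower in each treatment, where 9.9% and 10% of all genes were in the control and 14.3% and 14% with Arg. ARNTL2 was at -0.66 in the control (adjusted p = 0.00358), at -0.69 without control replicate B of 48 h, and at -0.50 with Arg (adjusted p = 0.000156), and was called with any library left out.

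The kinases, ligases, and co-repressors that act on clock proteins or together with them were all tested, 12 of 12. With Arg at 24 h, 0 were higher and 2 were lower (2.79% and 3.84% of all genes), and at 48 h 0 and 0 (0% and 0.117%). CSNK1E, the casein kinase 1ε that phosphorylates PER proteins, was at 56.9, 50.2, and 60.4 CPM in the 24 h control and 36.1, 43.4, and 38.5 CPM with Arg, with a log2 fold change of -0.51 ± 0.10 (adjusted p = 0.00589, edgeR). SIRT1, a deacetylase that binds CLOCK and BMAL1, was at 47.7, 43.4, and 44.9 CPM in the control and 37.2, 32.9, and 32.8 CPM with Arg, with a log2 fold change of -0.40 ± 0.10 (adjusted p = 0.0173). Neither gene overlapped between the groups. CSNK1E passed with any of the 6 libraries left out, while SIRT1 lost its call without control replicate A or C (adjusted p = 0.0967 and 0.0539) or Arg replicate B or C (0.0885 and 0.0980). At 48 h, CSNK1E was at -0.29 (adjusted p = 0.261, edgeR) and SIRT1 at -0.21 (adjusted p = 0.337), and neither passed. Without control replicate B, CSNK1E was at -0.40 (adjusted p = 0.00214) and SIRT1 at -0.26 (adjusted p = 0.0472). In that fit, 8.17% of all genes were called lower. With any other library left out, neither gene passed at 48 h. Over time, NCOR1 was higher and HDAC3 and SIRT1 were lower at 48 h in the control (9.9% and 10% of all genes), and NCOR1 was higher and HDAC3 lower with Arg (14.3% and 14%). The calls for NCOR1 held with any library left out, with 0.56 in the control without its replicate B of 48 h. The gene span of NCOR1, introns included, shares 15859 bases with TTC19 and 995 with PIGL, both on the opposite strand. TTC19 had 9245 and PIGL 3061 counts against 19881 of NCOR1. HDAC3 lost its call in the control without replicate A (adjusted p = 0.0765) or C (0.128) of 24 h or replicate B (0.0562) or C (0.0747) of 48 h, and with Arg without replicate C of 24 h (0.0974) or replicate A (0.0705) or B (0.0813) of 48 h. SIRT1 lost its call in the control without replicate A (adjusted p = 0.110) or C (0.0746) of 24 h or replicate A of 48 h (0.0692), and was at -0.30 (0.0438) without replicate B of 48 h.

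Of the clock outputs and relatives of DBP, 5 of 6 genes were tested for the effect of Arg, and 0 were higher and 0 lower at either time, where 2.79% and 3.84% of all genes were at 24 h and 0% and 0.117% at 48 h. At an unadjusted p under 0.05, these were 2 higher and 2 lower at 24 h (10.8% and 11.9% of all genes) and 0 and 1 at 48 h (5.94% and 7.49%). Over time, 1 of 5 genes was higher and 0 were lower in the control (9.9% and 10% of all genes), and 1 of 4 was higher and 1 lower with Arg (14.3% and 14%). USP2 was higher at 48 h in both treatments, at 1.17 in the control (adjusted p = 0.01001) and 0.69 with Arg (adjusted p = 0.0378, edgeR), and WEE1 was lower with Arg at -0.23 (adjusted p = 0.0413). USP2 lost its call in the control without replicate C of 24 h (adjusted p = 0.0503), was at 1.19 (0.00940) without replicate B of 48 h, and lost its call with Arg without replicate A of 24 h (0.139) or replicate A (0.111), B (0.0844), or C (0.0533) of 48 h. WEE1 lost its call without Arg replicate B (adjusted p = 0.0898) or C (0.0763) of 24 h or Arg replicate A (0.0672) or B (0.301) of 48 h.

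The listed supplements include hydrocortisone, and 9 genes known to respond to glucocorticoids were examined. With Arg at 24 h, 1 was higher and 1 lower (2.79% and 3.84% of all genes), and at 48 h 0 and 0 (0% and 0.117%). ZBTB16 was at 0.63 at 24 h and did not pass (adjusted p = 0.176, edgeR). It passed in 1 of the 6 fits with a library left out, without Arg replicate A (0.90, adjusted p = 0.0343). Its log2 fold changes in these fits lay between 0.33 and 0.90. TSC22D3 (GILZ), a glucocorticoid-induced leucine zipper, was at 29.9, 49.9, and 42.4 CPM in the 24 h control and 70.1, 71.1, and 77.0 CPM with Arg, with a log2 fold change of 0.84 ± 0.13 (adjusted p = 0.00100, edgeR). DUSP1, a phosphatase of the MAP kinases, was at 332, 250.4, and 346 CPM in the control and 109, 108, and 119 CPM with Arg, with a log2 fold change of -1.47 ± 0.11 (adjusted p = 1.52e-07). Neither overlapped between the groups, and both passed with any of the 6 libraries left out. At 48 h, TSC22D3 was at 0.31 (adjusted p = 0.305, edgeR) and DUSP1 at -0.95 (adjusted p = 0.0608), and neither passed. Without control replicate B, TSC22D3 was at 0.52 (adjusted p = 5.09e-06) and DUSP1 at -1.17 (adjusted p = 4.58e-12). In that fit, 7.76% of all genes were called higher and 8.17% lower. With any other library left out, neither gene passed at 48 h. Between 24 and 48 h, 4 of the 9 were higher and 1 was lower in each treatment (9.9% and 10% of all genes in the control, 14.3% and 14% with Arg), with FKBP5, KLF9, TSC22D3, and ZBTB16 higher and ERRFI1 lower. All 5 were called in the control without its replicate B of 48 h, at 0.35 for FKBP5, 0.62 for KLF9, 1.10 for TSC22D3, 1.89 for ZBTB16, and -0.36 for ERRFI1. In the control, FKBP5 lost its call without replicate A of 24 h (adjusted p = 0.0529), and ERRFI1 without replicate A (0.0999) or C (0.187) of 24 h or replicate A (0.127) or C (0.0992) of 48 h. With Arg, ERRFI1 lost its call without replicate A of 24 h (adjusted p = 0.0598) or replicate A (0.0909) or B (0.07997) of 48 h. In these lists and the markers, COL1A1, DCN, ITGA6, KDR, KRT5, ARNTL2, NCOR1, HDAC3, USP2, WEE1, FKBP5, KLF9, ZBTB16, and ERRFI1 were named after their values were seen.

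The genes with the most similar profiles were sought for NR1D2 and CRY2, the members with the smallest p at 24 and 48 h. Likeness was the root mean square difference of log2 CPM, centred on the mean of each gene, over the 12 libraries and among 12802 genes. For NR1D2, these were RMC1 at 0.089, KLHL5 at 0.092, and SLC27A4 at 0.102, where the median over all genes was 0.304. For CRY2, they were PMM2 at 0.0822, MARVELD1 at 0.0834, and LMNB1 at 0.0842, with a median of 0.29. The 12 points share libraries and depth, and the values are a description only.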

How the data were processed

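RNA sequencing data of 12 TIGK libraries were used. The authors made the raw counts per gene before they deposited them, with fastp, STAR, and featureCounts on GRCh38/hg38. The tool versions, the annotation release, and the strand setting are not given in the sources used here. The deposited counts were not normalized.

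Groups were taken from the labels. Groups were compared with edgeR 4.0.16 in R 4.3.3 (filterByExpr, TMM, quasi-likelihood test), with 3 libraries against 3, with Benjamini–Hochberg adjustment over the genes tested. The interaction used all 12 libraries. CPM was computed with TMM factors of all 12 libraries. The alternatives were DESeq2 1.42.0, its size factors, library size only, 2 other filters on low counts, 1 model of all libraries, the replicate block, and each library left out. Scripts were tested on simulated data. The rule named all 10 members, CLOCK, and ARNTL. It added at most 4 genes per further list with an adjusted p under 0.05 between Arg and control. Other genes of the lists and markers were named after their values were seen, as stated in the Results. Promoter sequences came from RefSeq (GRCh38.p14), and the motifs searched were the usual textbook forms. The members and the lists were chosen with earlier results of these data known. Raw counts per library lay between 16542243 and 19040964, and their number limits the precision of genes with few counts.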

Additional observations from a re-analysis of the deposited data

How the results depend on the processing

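Of the counts of called members, 105 were within 1.5 times under the alternatives other than a left-out library, and 3 were not. With a library left out, 76 were and 44 were not. In the single model of all 12 libraries, 2 members were higher with Arg at 24 h, with CRY2 added. With library size only, 1 member was lower over time in the control, and without a filter on low counts 1 interaction was positive at an unadjusted p under 0.05. With a library left out, which also leaves fewer samples, the counts at 24 h lay between 0 and 2 both higher and lower (2 and 3 unadjusted, in each direction), at 48 h between 0 and 1 higher and at 0 lower (0 and 2, and 0 and 1 unadjusted), over time in the control between 0 and 1 in each direction, with Arg between 0 and 2 lower, and for the interaction between 0 and 2 unadjusted in each direction. The letters A to C were not seen to pair the libraries: the correlations of deviations lay between -0.0615 and 0.135 over the 4 comparisons. Such weak correlations cannot show that no pairing exists. The fit with the replicate block left the count of called members at 1 higher and 2 lower at 24 h and at 0 and 0 at 48 h. Over all genes, the block changed the edgeR calls at 48 h from 0 higher and 17 lower to 43 and 141. Over time in the control, they went from 1431 and 1451 to 1969 and 2075. At 24 h, they were 379 and 545 instead of 398 and 549. With Arg over time, they were 1926 and 1853 instead of 2060 and 2012.

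Of the log2 fold changes of the members, 329 kept their sign and their side of the threshold under the other alternatives and 297 with a library left out, where 30 lost and 5 gained the call. Most of these results were never called, so these numbers say little about the calls. Of the 6 fits with a library left out, BHLHE40 was called in 0, PER3 in 2, and NR1D2 in 3 at 24 h. Over time in the control, NR1D2 was called in 0, and NR1D1 and PER1 each in 2. With Arg over time, PER2 was called in 3, and PER1 and BHLHE40 each in 6. Signs turned only for log2 fold changes that were not called. With library size only, these were CRY2 over time in the control (0.050), NR1D2 over time with Arg (0.054), and the PER1 interaction (-0.0036). Without a filter, NR1D2 over time with Arg was 0.0011, and with at least 10 counts in every library the PER1 interaction was -0.0026. The DBP interaction was 0.0031 with DESeq2, 0.0020 with its size factors, and 0.0029 with the replicate block. With a library left out, the ranges across 0 were -0.0054 to 0.18 for PER1 and -0.20 to 0.15 for DBP at 24 h, and -0.24 to 0.13 for NR1D1, -0.16 to 0.0071 for NR1D2, and -0.15 to 0.030 for DBP at 48 h. Over time, they were -0.096 to 0.053 for CRY2 and -0.011 to 0.44 for CIART in the control, and -0.087 to 0.082 for NR1D2 and -0.053 to 0.31 for DBP with Arg. For the interaction, they were -0.10 to 0.083 for PER1, -0.14 to 0.0077 for CRY2, -0.21 to 0.15 for DBP, and -0.12 to 0.34 for CIART. The cause was not tested. The mean levels per kilobase moved by less than 1 SD with other scalings.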
